A study of Ambystoma mexicanum with 5 samples.

Results

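The genes described are the connective tissue collagens that could be named in dermal cells of the uninjured axolotl limb, a set of 6 among the 99088 genes of the count table and the 20875 genes tested between posterior and anterior cells. They are *COL12A1* (AMEX60DD033627), *COL16A1* (AMEX60DD006034), *COL21A1* (AMEX60DD020532), *COL8A1* (AMEX60DD048332), *COL6A6* (AMEX60DD022617) and *COL11A1* (AMEX60DDU001010640). All 6 passed the filter on low counts. They were chosen by the study's own calls on these libraries: its lists of posterior-enriched and anterior-enriched genes (DESeq2, false-discovery rate of 0.01) give a collagen symbol to 7 identifiers, and *COL17A1*, an epidermal collagen, was set aside. The position difference of each gene is therefore a description of what was selected, and no test of it is read as support. The symbols are those of the human homologue, or of the closest homologue the authors found. RefSeq lists 39 protein-coding genes with a symbol of this form in another axolotl assembly (UKY_AmexF1_1), and the collagens beyond these 7 identifiers were not analysed here. Those include further collagens that the study names, by symbol alone, among its position-dependent matrix and adhesion genes, so that the 6 are not all the collagens in its lists.

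The cells came from 3 posterior and 2 anterior replicates, each pooled from 8 axolotls of 12 cm (16 lower arms). All animals carried the same tgSceI transgenes. In one, mouse *Prrx1* limb enhancer sequence (Mmu.Prrx1) drives a nuclear fluorescent protein (TFPnls) and, behind a self-cleaving peptide, the inducible recombinase ERT2-Cre-ERT2. In the other, the ubiquitous promoter Caggs drives a loxP-flanked GFP that is exchanged for mCherry once Cre has acted. The animals had received 4-hydroxytamoxifen (4-OHT) as embryos, which marked connective tissue cells with mCherry for life. Posterior and anterior strips of forearm skin were taken separately, without the tissue in the middle, and the red fluorescent cells of either strip were collected by flow cytometry. The limbs were uninjured, and no treatment beyond the 4-OHT is described for these animals. The age of these animals is known only as an upper limit that covers all animals of the study. It is not stated whether libraries with equal replicate numbers, or replicates of one position, share animals. Errors and p-values therefore measure the spread between these libraries, part of which may be technical.

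Collagens are the fibre-forming and network-forming proteins of the extracellular matrix, each built from chains that wind around one another into a stiff helix. Fibrillar collagens form the cable-like fibrils that give skin its strength. Fibril-associated collagens sit on the surface of those fibrils and link them to other matrix proteins. Others form sheets or fine beaded filaments near cells. In skin these proteins are made mainly by dermal fibroblasts, the cells at which the sort was aimed. Collagen XII, XVI and XXI chains (*COL12A1*, *COL16A1*, *COL21A1*) are fibril-associated, the collagen VIII chain (*COL8A1*) forms hexagonal networks, *COL6A6* encodes an alternative chain of the beaded-filament collagen VI, and *COL11A1* encodes a chain of collagen XI, a minor fibrillar collagen best known from cartilage.

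Posterior cells had a smaller share of RNA from 4 of these collagen genes and a larger share from the other 2. Collagen protein was not measured here. *COL8A1*, *COL12A1*, *COL6A6* and *COL16A1* were lower in posterior cells, with anterior levels between 1.58 and 2.63 times the posterior ones. *COL21A1* and *COL11A1* were higher in posterior cells, by 2.13 and 5.82 times. In each of the 6, the posterior and anterior libraries did not overlap in CPM (counts scaled to the same library total, with TMM factors), which was also the case for 24.1% of all genes tested. In edgeR's quasi-likelihood fit over all genes 1 of the 6 was called at a false-discovery rate of 0.01, where 0.254% of the genes tested were called. At a rate of 0.05 it was 2 of the 6, with 0.608% of all genes. DESeq2, the tool behind the study's selection, called all 6, and 1.45% of the genes with an adjusted p. Since the same contrast chose the genes, nothing is read from these counts. In bulk libraries, fewer cells of one kind and less RNA per cell cannot be told apart.

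**Figure D1:**
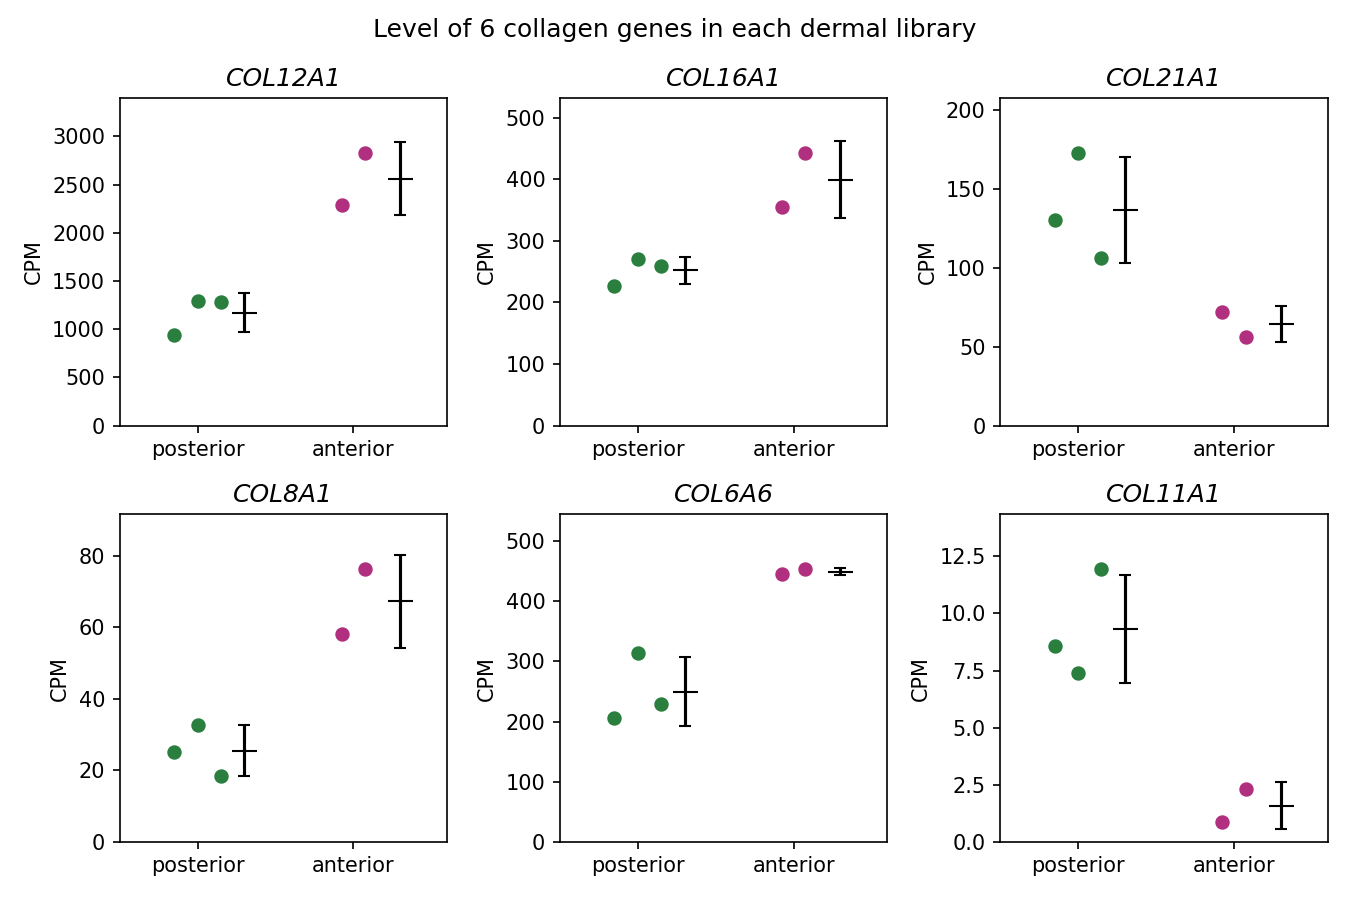
Level of each collagen gene in CPM (y axis from 0) in the 3 posterior (green) and 2 anterior (magenta) libraries, with the mean and SD beside the points. *COL12A1* spans 937 to 1297 CPM in posterior and 2293 to 2831 CPM in anterior libraries, and only *COL21A1* and *COL11A1* are higher in posterior libraries.

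*COL12A1* was the most abundant of the set. Its chain forms collagen XII, which decorates fibrils in dense tissue such as dermis, tendon and fascia. It had 54964, 75936 and 68665 counts in the posterior libraries, against 102751 and 144502 counts in the anterior libraries. These are 937, 1297 and 1278 CPM in posterior and 2293 and 2831 CPM in anterior cells. The posterior libraries all lay well below both anterior ones, with posterior replicate 1 the lowest. The lower anterior library was still 1.77 times the highest posterior one. The mean was 1171 ± 202 CPM (SD, n = 3) in posterior and 2562 ± 380 CPM (SD, n = 2) in anterior cells, or -1.13 ± 0.15 as log2 fold change (± standard error, here and for the other collagens). This is the collagen called by edgeR at the false-discovery rate of 0.01. It lost the call whichever posterior library was left out, with adjusted p of 0.0381, 0.116 and 0.0522 in edgeR without posterior replicate 1, 2 and 3, although its log2 fold change stayed between -1.28 and -0.97 over all fits that left out 1 library.

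*COL16A1* encodes another fibril-associated chain, found in dermis near the basement membrane. It had 227, 270 and 259 CPM in posterior libraries, against 355 and 443 CPM in anterior libraries. Its posterior libraries lay close together, while the anterior ones were further apart, and the gap between positions was the smallest of the set, at 1.32 times between the nearest libraries. The mean was 252 ± 22.4 CPM (SD, n = 3) in posterior and 399 ± 62.2 CPM (SD, n = 2) in anterior cells. This gave a log2 fold change of -0.66 ± 0.14, which ran from -0.82 to -0.49 when single libraries were omitted.

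*COL21A1*, the remaining fibril-associated gene, went the other way. It had 7634, 10116 and 5709 counts in posterior libraries, against 3233 and 2862 counts in anterior libraries, which is 130, 173 and 106 CPM in posterior and 72.2 and 56.1 CPM in anterior cells. All posterior libraries were higher, but they differed among themselves by up to 1.63 times, which is more than the 1.47 times between the lowest posterior and the highest anterior library. The mean was 136 ± 33.7 CPM (SD, n = 3) in posterior and 64.1 ± 11.4 CPM (SD, n = 2) in anterior cells (log2 fold change 1.09 ± 0.22). The values without 1 library ranged from 0.88 to 1.28. The fibril-associated chains thus did not share a direction.

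*COL8A1* encodes a short network-forming chain, known from vessel walls and the cornea. It had 1482, 1921 and 998 counts in posterior libraries, against 2604 and 3897 counts in anterior libraries. This corresponds to 25.3, 32.8 and 18.6 CPM in posterior and 58.1 and 76.4 CPM in anterior cells. Posterior replicate 3 was the lowest and posterior replicate 2 the highest of their position, 1.77 times apart, and the gap to the lower anterior library was also 1.77 times. The mean was 25.6 ± 7.13 CPM (SD, n = 3) in posterior and 67.2 ± 12.9 CPM (SD, n = 2) in anterior cells. Among the genes lower in posterior cells it had the strongest difference, -1.40 ± 0.24 as log2 fold change. Its range was -1.62 to -1.18 with each library left out.

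*COL6A6* encodes an alpha chain of collagen VI, whose beaded filaments run between cells and fibrils. It had 206, 315 and 229 CPM in posterior libraries, against 445 and 454 CPM in anterior libraries. The anterior libraries were almost equal, and the posterior ones spread over 1.53 times, with posterior replicate 2 the highest. The mean was 249.8 ± 57.2 CPM (SD, n = 3) in posterior and 449 ± 6.23 CPM (SD, n = 2) in anterior cells. The log2 fold change of -0.85 ± 0.17 ran from -1.05 to -0.72 with each library left out. Reads that also align to other collagen VI chains could not be followed, since the counting of reads with several alignments is not stated.

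*COL11A1* was the least abundant and differed the most. Its chain takes part in starting new fibrils and in limiting their width. It had 503, 432 and 642 counts in posterior libraries, against 39 and 118 counts in anterior libraries. As CPM of the raw library total these were 8.52, 7.41 and 11.9 in posterior cells, against 0.88 and 2.30 in anterior cells. The exact 95% binomial intervals of the anterior values, 0.626 to 1.20 and 1.90 to 2.75, do not overlap, so that the 2 anterior libraries differed by more than counting error. Such intervals cover counting error only, as no molecular identifiers are described. The mean after scaling was 9.30 ± 2.37 CPM (SD, n = 3) in posterior and 1.59 ± 1.02 CPM (SD, n = 2) in anterior cells. The log2 fold change of 2.54 ± 0.53 lay between 2.01 and 3.41 with each library left out, the widest range of the 6. Both ends of this range came from leaving out an anterior library.

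**Figure D2:**
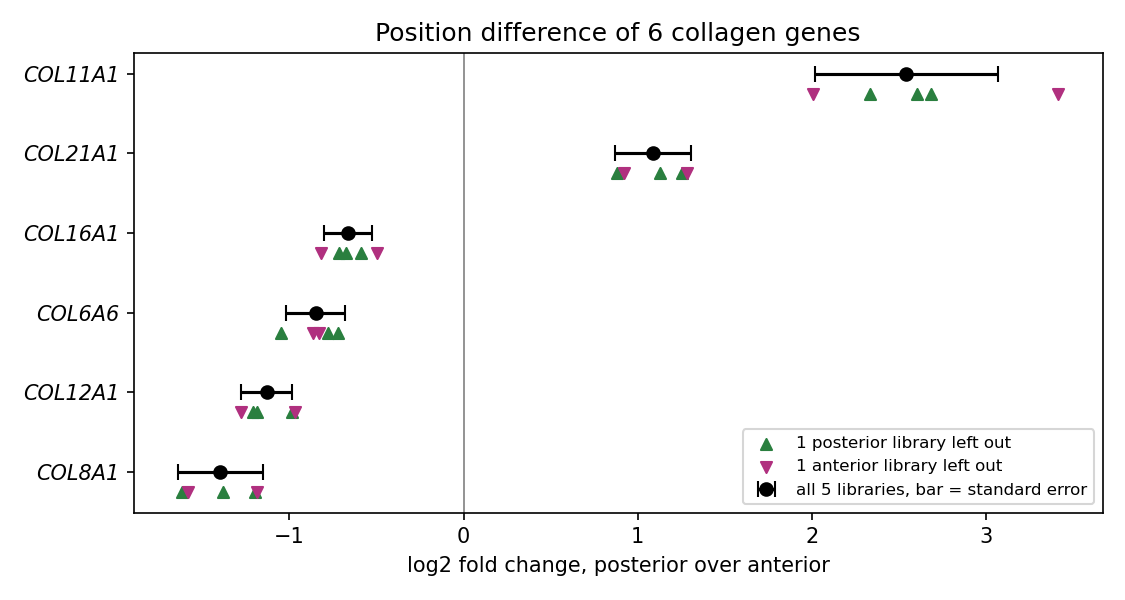
Log2 fold change of each collagen gene, posterior over anterior (x axis), from the fit on all 5 libraries with its standard error (black), and from fits that left out 1 posterior (green) or 1 anterior (magenta) library. Every gene stays on its side of 0, as was largely fixed by positions that do not overlap. *COL11A1* moves the most, between 2.01 and 3.41.

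The 6 genes covered a wide range of levels. Libraries of this kind read the 3′ end of each transcript, so that CPM of different genes need no correction for transcript length. Such levels still depend on how reads with several alignments were counted, which is not stated. Averaged over the 5 libraries, *COL12A1* stood at 1727 CPM, *COL6A6* at 329.5 CPM, *COL16A1* at 311 CPM, *COL21A1* at 107.5 CPM, *COL8A1* at 42.2 CPM and *COL11A1* at 6.22 CPM. *COL12A1* ranked 94 of the 20875 genes tested and *COL11A1* ranked 9223. *COL6A6* and *COL16A1* were neighbours in this order and did not differ beyond their spread, with a ratio of *COL6A6* to *COL16A1* of 0.908, 1.17 and 0.882 in posterior libraries, against 1.25 and 1.02 in anterior libraries. Between the other neighbours in the order, the levels differed by more than the spread of the libraries within a position, except that *COL21A1* and *COL8A1* came close in anterior cells. There *COL21A1* was at 72.2 and 56.1 CPM and *COL8A1* at 58.1 and 76.4 CPM in replicates 1 and 2. In posterior cells *COL21A1* was above *COL8A1* in every library.

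**Figure D3:**
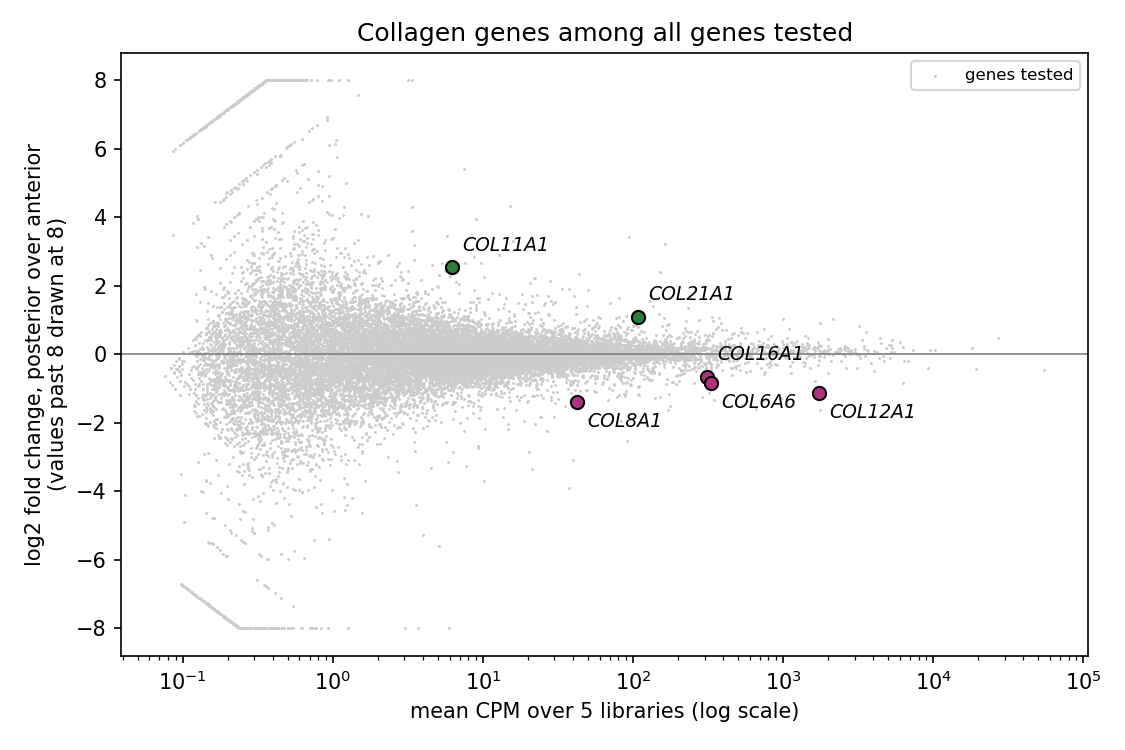
Mean level of each gene tested (CPM over 5 libraries, log scale) against its log2 fold change, posterior over anterior. Grey points are the genes tested, and the named points are collagens higher (green) or lower (magenta) in posterior cells. *COL12A1*, at a mean of 1727 CPM, lies far to the right, and *COL11A1*, at 6.22 CPM, is in the middle of the range of levels.

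Added together, the 6 collagens reached 1535, 2095 and 1902 CPM in posterior libraries, against 3225 and 3863 CPM in anterior libraries. This sum was 1844 ± 285 CPM (SD, n = 3) in posterior and 3544 ± 451 CPM (SD, n = 2) in anterior cells, or 0.184% and 0.354% of all counts. The anterior sum was 1.92 times the posterior one. Most of it was *COL12A1*, which made up 63.4 ± 3.29% of the sum in posterior and 72.2 ± 1.54% in anterior cells. *COL21A1* took 7.44 ± 1.61% in posterior and 1.85 ± 0.556% in anterior cells. *COL6A6*, by contrast, kept a like share, 13.5 ± 1.50% in posterior and 12.8 ± 1.45% in anterior cells. The make-up can also be read from ratios inside a library, which do not depend on how libraries are scaled. *COL12A1* was 7.20, 7.51 and 12.0 times *COL21A1* in posterior libraries, against 31.8 and 50.5 times in anterior libraries. *COL8A1* was 2.95, 4.45 and 1.56 times *COL11A1* in posterior libraries, against 66.8 and 33.0 times in anterior libraries. Both ratios were lower in every posterior library than in either anterior one. The choice of genes fixed this in advance. Each ratio sets a gene lower in every posterior library over one that is higher in every posterior library.

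**Figure D4:**
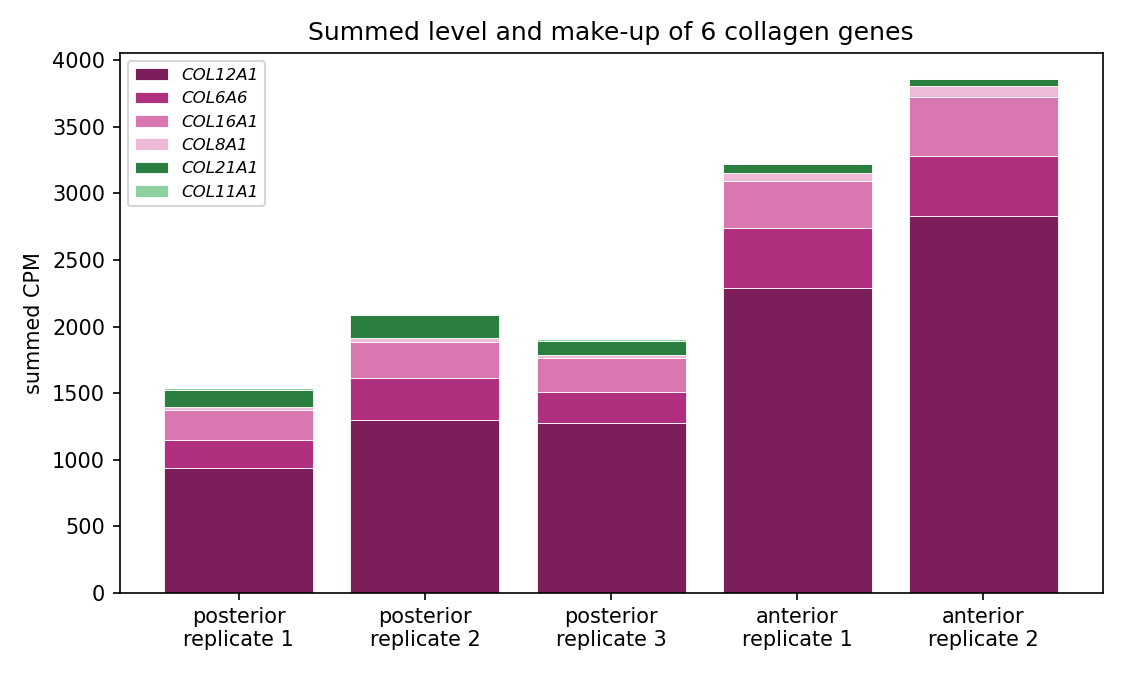
Summed level of the 6 collagen genes in each library (CPM, bars from 0), split by gene, with the genes lower in posterior cells in magenta shades and those higher in posterior cells in green. The posterior bars reach 1535 to 2095 CPM and the anterior bars 3225 and 3863 CPM, and *COL12A1* is the largest piece of each.

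Inside a position, the collagens varied together in part. Posterior replicate 2 was the highest posterior library for 5 of the 6 genes, where 32.0% of all genes tested had their highest posterior value. These 5 include *COL21A1*, which is higher in posterior cells, as well as all 4 genes that are lower there. On the log2 scale posterior replicate 2 stood 0.37 above the mean of its position for *COL21A1*, 0.40 for *COL8A1* and 0.36 for *COL6A6*, but only 0.16 for *COL12A1* and 0.10 for *COL16A1*. For *COL12A1*, posterior replicate 3 was almost as high, at 0.14 above the mean. *COL11A1* was the exception, with its lowest posterior value there, 0.30 below the mean on the log2 scale. In anterior cells replicate 2 was the higher library for 5 of the 6, against 50.2% of all genes, and the exception was *COL21A1*. With so few libraries and genes this is a description only.

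The spread between posterior replicates was above the median of genes of like level for 5 of the 6 collagens. The coefficient of variation (SD over mean) of *COL12A1* across posterior libraries was 17.3%, against a median of 5.78% for the 85 tested genes within 0.5 log2 units of its level. For *COL6A6* it was 22.9% against 8.51%, for *COL21A1* 24.7% against 10.7%, and for *COL8A1* 27.9% against 13.1%. *COL16A1* was barely above, at 8.87% against 8.74%, and *COL11A1* was below it, at 25.4% against 30.2%. Of the 284 genes in the study's lists with a posterior coefficient of variation, 48.6% lay above the median of genes of their level. In anterior cells 5 of the 6 collagens exceeded that median, the exception being *COL6A6*, at 1.39% against 7.03%.

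**Figure D5:**
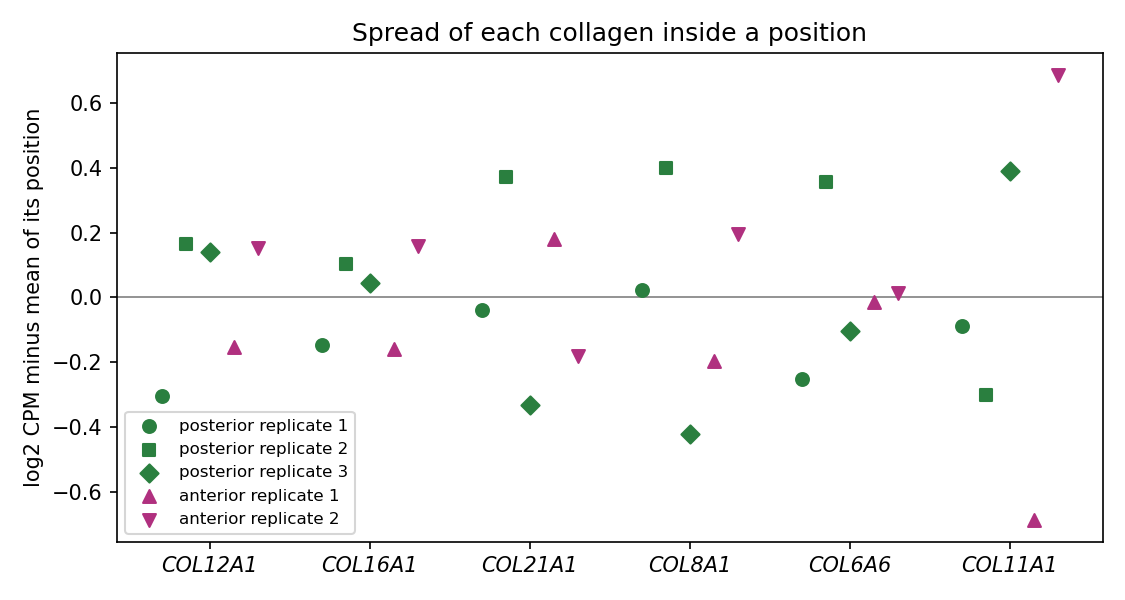
Log2 CPM of each collagen gene in each library minus the mean of its position (y axis), for 3 posterior (green) and 2 anterior (magenta) libraries. Posterior replicate 2 (squares) is the highest posterior library for each gene except *COL11A1*, and anterior replicates lie furthest apart for *COL11A1*.

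Genes with the most similar profile over the 5 libraries were found by the root mean square difference of centred log2 CPM, among genes with a symbol. Symbols exist only for the study's lists, so that the candidates had been selected for a position difference. The closest to *COL12A1* was *EMILIN3*, a glycoprotein of the EMILIN family, with a difference of 0.10, followed by *FAM180A* with 0.14. For *COL8A1* it was *EMID1*, a secreted protein with a collagen-like stretch, with 0.12, followed by *RSPO1*, a secreted Wnt agonist, with 0.13. The profile of *COL16A1* was matched by *ADGRA2*, an adhesion receptor, and *TAT*, both at 0.05. *COL6A6* lay nearest to *RASL11B* (0.09) and *SMPDL3A* (0.11). Near *COL21A1* were LOC115080300, at 0.07, and *CYP2J2*, at 0.20. For *COL11A1* the nearest were further off, *MRPS5* at 0.36 and *ADGRD1* at 0.44. These are the nearest among genes with a symbol only, and each collagen had a closer gene without one. Of all genes tested, 6 were closer to *COL11A1* than *MRPS5*, and 26 were closer to *COL21A1* than *CYP2J2*. *MRPS5* was itself scarce, at a mean of 2.06 CPM. Among the collagens themselves the closest pair was *COL16A1* and *COL6A6*, at 0.20, and *COL21A1* and *COL11A1*, though both higher in posterior cells, were 1.05 apart.

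The collagens do not lie beside other genes of the study's lists as far as symbols can tell. In the RefSeq annotation, none of the 12 protein-coding genes that flank the 6 collagens carries a listed symbol, and 5 of the 12 have no symbol beyond a LOC number. *COL21A1* lies next to *BMP5* there, and *COL12A1* next to *COX7A2*.

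Other genes of collagen biology could be followed only where the study's lists pair a symbol with an identifier, and hence where a position difference had been found. Of 18 genes for collagen synthesis and crosslinking and 20 further connective tissue collagens, 0 had an identifier, although the study names some of these collagens by symbol. Nothing about their levels follows from this 0. Of 16 receptors and turnover enzymes, 3 had one, and 0 of these 3 passed edgeR's test. *DDR2*, a receptor kinase that binds fibrillar collagen, was at 12.5 ± 2.19 CPM (SD, n = 3) in posterior and 28.2 ± 1.59 CPM (SD, n = 2) in anterior cells. *PLAU*, the urokinase-type plasminogen activator, was at 72.1 ± 10.3 CPM in posterior and 132 ± 36.2 CPM in anterior cells. *MMP1*, a collagenase, had 20, 219 and 30 counts in posterior libraries, against 0 in both anterior libraries, so that most of its signal came from posterior replicate 2. The 3 counts that mark the limit of detection correspond to 0.0677 and 0.0584 CPM in the anterior libraries.

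Of 11 proteins with a collagen-like stretch, 4 had an identifier, and they divided evenly between the positions. *C1QTNF7*, a secreted relative of adiponectin, passed the test, at 10.1 ± 2.86 CPM (SD, n = 3) in posterior and 85.0 ± 10.6 CPM (SD, n = 2) in anterior cells. *EMID1* was at 89.1 ± 18.4 CPM in posterior and 216 ± 25.6 CPM in anterior cells. *SCARA5*, a ferritin receptor, was at 126 ± 21.1 CPM in posterior and 69.2 ± 10.6 CPM in anterior cells, and *C1QTNF1* at 12.99 ± 3.93 CPM in posterior and 4.11 ± 1.42 CPM in anterior cells.

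Of 19 matrix proteins grouped here as fibril-associated, 10 had an identifier. In posterior cells 5 were higher, 2 of which passed the test, and 5 were lower, 2 of which passed. Over all genes tested, 53 passed with every library and 5, 2 and 3 passed without posterior replicate 1, 2 and 3. Whether the called genes of this list kept their calls in those fits is not shown here. *POSTN*, periostin, which binds collagen and fibronectin, fell to 4769 ± 288 CPM (SD, n = 3) in posterior cells, against 8555 ± 651 CPM (SD, n = 2) in anterior cells. *FN1*, fibronectin, rose to 1312 ± 27.4 CPM in posterior cells, against 787 ± 27.8 CPM in anterior cells. *THBS2*, a thrombospondin needed for regular dermal fibrils in mice, fell to 310 ± 16.6 CPM in posterior cells, against 870 ± 118 CPM in anterior cells. *MFAP5*, a microfibril protein that did not pass, was at 1258 ± 215 CPM in posterior and 617 ± 39.3 CPM in anterior cells. The abundant fibril-associated proteins thus lay on both sides, as the collagens did. The median log2 fold change was 0.06 for the 10 and -0.76 for the 6 collagens. The value of 0.06 lies in the gap between *MFAP4*, at -0.61, and *FN1*, at 0.74, and describes none of the 10. Both lists hold only genes selected for a position difference, so that their medians are not comparable with the -0.02 of all genes tested. Of 13 basement membrane genes 6 had an identifier, 2 higher and 4 lower in posterior cells. *SMOC2*, a secreted calcium-binding protein, was the only one to pass, at 39.2 ± 4.06 CPM in posterior and 150 ± 16.4 CPM in anterior cells. *EGFL6*, known from the basement membrane of the hair follicle in mice, was at 124 ± 5.13 CPM in posterior and 227 ± 20.1 CPM in anterior cells. *LAMA4*, a laminin chain, was at 139 ± 6.17 CPM in posterior and 89.1 ± 4.16 CPM in anterior cells.

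Library totals ran from 44317956 to 59062548 counts. *HAND2*, the posterior transcription factor, served as a check of the labels and was at 143 to 153 CPM in posterior and 13.4 to 13.9 CPM in anterior libraries. The defining markers of connective tissue, such as *Prrx1*, carry no identifier in the study's lists, so that the sorted cell type was not checked against them here. The paper itself reports *Prrx1* and *Tbx5* in cells of both positions. Cell type markers have an identifier only through the study's lists, so each one counted below had been selected for a position difference. Markers without an identifier are missing from every sum, so the sums do not measure the share of such cells. Of 15 epidermal markers 8 had an identifier (9 genes, 7 of them higher in posterior cells). Of the 9 genes 3 passed edgeR's test, where 0.254% of all genes tested passed. The summed level of the 9 was 906 to 1194 CPM in posterior and 440 to 474 CPM in anterior libraries. *COL17A1*, the epidermal collagen set aside here, was at 182 ± 27.4 CPM (SD, n = 3) in posterior and 68.4 ± 6.71 CPM (SD, n = 2) in anterior cells. The most abundant were *DSP*, desmoplakin, at 196 ± 40.7 CPM in posterior and 121 ± 12.9 CPM in anterior cells, and the mucin *MUC5B*, at 223 ± 64.8 CPM in posterior and 42.4 ± 27.0 CPM in anterior cells. *KRT17* had 0 counts in both anterior libraries and *KRT18* had 0 counts in every posterior library. Both keratin genes were scarce, with means over the 5 libraries of 1.11 and 0.934 CPM. Of 10 cartilage markers 3 had one, and their sum was 148 to 174 CPM in posterior and 175 to 176 CPM in anterior libraries. *ACAN*, the main proteoglycan of cartilage, was at 59.2 ± 12.0 CPM in posterior and 30.0 ± 5.62 CPM in anterior cells, higher in posterior cells like *COL11A1*. *SCRG1* was at 38.6 ± 5.93 CPM in posterior and 13.2 ± 0.564 CPM in anterior cells, and *CRTAC1* fell to 58.9 ± 7.23 CPM in posterior cells, against 132 ± 5.61 CPM in anterior cells. The defining cartilage collagen *COL2A1* was not analysed here. The 2 of 8 endothelial markers with an identifier, *CD34* and *ARHGEF15*, summed to 57.8 to 77.7 CPM in posterior and 30.7 to 32.2 CPM in anterior libraries, and 3 of 8 blood and macrophage markers, *CTSS*, *TIMD4* and *ARHGDIB*, to 178 to 203 CPM in posterior and 82.4 to 116 CPM in anterior libraries. Of 8 nerve markers 4 had an identifier, 1 higher and 3 lower in posterior cells, with a sum of 144 to 154 CPM in posterior and 181 to 210 CPM in anterior libraries. *UCHL1* was the higher one, at 61.4 ± 7.92 CPM in posterior and 30.2 ± 7.91 CPM in anterior cells, while *EDNRB* was at 1.81 ± 1.31 CPM in posterior and 13.2 ± 1.03 CPM in anterior cells, and *CADM3* and *NGFR* were also lower. Of 10 muscle and mural markers 5 had an identifier, 3 higher and 2 lower in posterior cells. Their sum, 70.9 to 75.2 CPM in posterior and 101 to 104 CPM in anterior libraries, was mostly *SYNM* and *RGS5*, the lower ones. The others went the opposite way, with *NEBL* at 16.1 ± 2.19 CPM in posterior and 4.59 ± 1.98 CPM in anterior cells, *PRKAG3* at 5.47 ± 2.21 CPM in posterior and 0.273 ± 0.196 CPM in anterior cells, and *CAV3* at 106, 85 and 69 counts in posterior libraries, against 0 and 1 count in anterior libraries. None of the endothelial, blood, nerve or muscle genes passed edgeR's test, while DESeq2 called all of them, as it had in the selection. The part of such cells in the collagen levels was not tested.

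All 6 collagens lay inside the study's threshold, which their selection by the same test on these libraries had fixed in advance. Nothing is read from this. In a rerun of DESeq2 on the counts, the collagen with the largest adjusted p was *COL11A1*, at 0.000528. The last gene inside the rate of 0.01 was AMEX60DD052283, at 0.00993 and a log2 fold change of 1.79, and the first outside was *SGK1*, at 0.01 after rounding and a log2 fold change of -0.77.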

How the data were processed

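The authors prepared QuantSeq 3′ libraries from 20.25 ng of RNA, ran Trimmomatic 0.39 (reads under 40 bases dropped) and HISAT2, which kept at most 5 positions for a read in the genome AmexG_v6.0-DD, and deposited whole-number counts per gene from featureCounts, without normalization. The versions of HISAT2 and featureCounts are not given in the sources used here, nor is the counting of reads with several alignments. Genes were tested with edgeR 4.0.16 in R 4.3.3 (filterByExpr, TMM, quasi-likelihood fit with position as the term, Benjamini-Hochberg adjustment over 20875 genes, false-discovery rate of 0.01). The standard error is the absolute log2 fold change over the square root of F. CPM uses TMM-scaled library sizes, and log2 CPM a prior count of 2. Alternatives were DESeq2 1.42.0, its size factors, no filter, the replicate number as a block, a rate of 0.05, and each library left out. The procedure was tested on simulated data, with a fixed dispersion and changes larger than those of every collagen but *COL11A1*. This does not show how well it finds smaller changes. All 6 collagens are described. Of each further list, all matched genes are counted and the more abundant named (all where 5 or fewer matched), with the 2 closest profiles per collagen. The scarce epidermal genes *KRT17* and *KRT18* are named in addition, for their 0 counts at one position. *OCLN* is also named, as the other epidermal gene higher in anterior cells. The members and lists were chosen with earlier results of these data known. Of 306 listed identifiers, 283 carry a symbol. Coordinates and sequences are not given, since no genome of the build was used here.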

Additional observations from a re-analysis of the deposited data

How the results depend on the processing

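The log2 fold changes of the 6 collagens kept their direction in all 54 values under the alternatives. This was largely fixed in advance: the positions did not overlap for any of the 6, and the same contrast chose the genes. Of the 54 values, 39 were on the same side of the threshold as in edgeR. For every collagen but *COL12A1* that side is the uncalled one. The number of collagens called was 1 of 6 in edgeR, 6 with DESeq2, 6 without the filter on low counts, 2 at a false-discovery rate of 0.05, and 0 to 1 with each library left out. *COL12A1* had an adjusted p of 0.0381, 0.116 and 0.0522 in edgeR without posterior replicate 1, 2 and 3. Over all genes, 53 were called in edgeR, 300 with DESeq2, 337 without the filter, 127 at a rate of 0.05, and 2 to 62 with each library left out, with 5, 2 and 3 without posterior replicate 1, 2 and 3. The labels give the positions shared replicate numbers, but only 2 numbers are shared, and deviations of equally numbered libraries correlated across genes with r of 0.00 and -0.05. In a fit with a replicate block, posterior replicate 3 had no anterior partner and so added nothing to the position difference. That fit called 3 collagens and 130 genes. The cause of these differences was not tested. With an anterior library left out, the lone one was assumed to vary like the posterior libraries. For *COL11A1* in anterior cells, the spread between libraries exceeded counting error.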
